A study of Mus musculus with 4 samples.

Results

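Neuregulin and ErbB signalling was followed through 8 genes: the ligand genes *Nrg1*, *Nrg4* and *Hbegf*, the receptor genes *Erbb2*, *Erbb3*, *Erbb4* and *Egfr*, and the intracellular inhibitor *Errfi1*. They were taken by gene symbol and make up 8 of the 32285 genes in the count matrices. Droplet scRNA-seq was performed on dissociated E14.5 mouse ventricles, with 2 control and 2 *Ets1* eKO libraries, each from the pooled ventricles of 3 embryos. Control embryos were Tie2Cre;Ets1 fl/+ and *Ets1* eKO embryos were Tie2Cre;Ets1 fl/fl. Both groups thus carried the Cre transgene and at least 1 floxed *Ets1* allele. They also shared the C57BL/6 background, included both sexes, were untreated and were labelled as the same batch. *Tie2*Cre is active in endothelium and endocardium, and also in cells derived from them such as cushion mesenchyme, and in blood cells. Deletion may therefore not have been limited to endothelial cells. The comparisons address whether the ligands of the endocardium and the receptors of the cardiomyocytes differed between *Ets1* eKO and control ventricles, and how they were distributed over the compact zone and the trabeculae.

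ErbB receptors are receptor tyrosine kinases that signal as pairs. Neuregulin 1, made by the endocardium, binds ErbB3 and ErbB4, while ErbB2 binds no ligand itself and acts as the partner of the other receptors. In the embryonic heart this endocardium-to-myocardium signal is known for its part in trabeculation, and heparin-binding EGF-like growth factor, encoded by *Hbegf*, acts through EGFR and ErbB4 and is known for its part in valve remodelling. *Errfi1* encodes a feedback inhibitor that binds the kinase domain of EGFR and its relatives. ETS family transcription factors such as Ets1 recognise DNA with a GGAA core.

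The promoter sequences of *Erbb4*, *Egfr* and *Errfi1* are shown because the receptor and inhibitor differences described here concern those genes. Each is the 250 bases upstream of a RefSeq start site on GRCm38.p6, 5′ to 3′ on the strand of the gene, with every GGAA, and its reverse complement TTCC, in capitals.
*Erbb4*, chr1:69108060-69108309, minus strand: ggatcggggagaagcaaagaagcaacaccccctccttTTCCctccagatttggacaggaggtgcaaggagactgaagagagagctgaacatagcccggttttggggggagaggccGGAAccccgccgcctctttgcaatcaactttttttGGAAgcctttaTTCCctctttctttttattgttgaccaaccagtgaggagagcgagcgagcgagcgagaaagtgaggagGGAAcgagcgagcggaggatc
*Egfr*, chr11:16751953-16752202, plus strand: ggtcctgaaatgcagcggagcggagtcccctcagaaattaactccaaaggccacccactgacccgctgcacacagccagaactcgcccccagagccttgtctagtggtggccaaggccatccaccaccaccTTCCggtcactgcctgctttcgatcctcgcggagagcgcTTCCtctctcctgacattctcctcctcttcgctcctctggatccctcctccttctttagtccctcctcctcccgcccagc
*Errfi1* first start, chr4:150853546-150853795, plus strand: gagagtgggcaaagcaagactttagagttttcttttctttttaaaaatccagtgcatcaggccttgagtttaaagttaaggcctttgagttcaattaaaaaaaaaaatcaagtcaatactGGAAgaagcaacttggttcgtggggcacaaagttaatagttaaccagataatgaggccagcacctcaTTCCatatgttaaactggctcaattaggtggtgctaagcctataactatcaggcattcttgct
*Errfi1* second start, chr4:150854820-150855069, plus strand: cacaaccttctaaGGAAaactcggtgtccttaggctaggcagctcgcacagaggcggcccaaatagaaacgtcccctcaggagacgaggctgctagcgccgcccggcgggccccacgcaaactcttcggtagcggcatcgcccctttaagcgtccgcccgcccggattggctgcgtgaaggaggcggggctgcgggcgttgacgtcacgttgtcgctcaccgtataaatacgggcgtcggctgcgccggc
The *Erbb4* window held 3 GGAA and 2 TTCC matches, and the *Egfr* window held 0 and 2. The first *Errfi1* window held 1 of each, and the second held 1 GGAA and 0 TTCC. GGAA on either strand was present in 93.4% of the 32851 promoters of that length, with a median of 3 matches. The longer motif CCGGAA, which contains GGAA, was counted on both strands and occurred 1 time each in the *Erbb4* and *Egfr* windows, 0 times in both *Errfi1* windows, and in 12.0% of all promoters. These matches describe letters in the windows and say nothing about binding. Promoter entries were matched for 5 of the 8 genes, and *Nrg1*, *Erbb3* and *Hbegf* had none.

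On GRCm38, *Nrg1* spans chromosome 8, positions 31814551 to 32884029, on the minus strand, and *Erbb4* spans chromosome 1, positions 68032186 to 69108059, on the minus strand. *Egfr* lies on chromosome 11 at 16752203 to 16918158 and *Erbb2* on chromosome 11 at 98412470 to 98437716, both on the plus strand. *Erbb3* lies on chromosome 10 at 128567523 to 128589652 on the minus strand, *Nrg4* on chromosome 9 at 55220222 to 55326844 on the minus strand, and *Errfi1* on chromosome 4 at 150853919 to 150868892 on the plus strand. *Erbb4* overlaps 8 annotated genes on its own strand, all predicted or small genes, and *Erbb3* overlaps the microRNA gene *Mir6917*. All values are 3′ end counts assigned to the whole gene, so they do not separate isoforms, and reads in such overlaps could be assigned to either gene.

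The libraries held 7949 to 14951 barcodes and 76931208 to 124140739 UMIs. After filters and doublet removal 37913 of 45551 barcodes were kept, with a median of 8713 and 8604.5 UMIs per cell in the control libraries and 8251 and 5317 in the *Ets1* eKO libraries, so the second *Ets1* eKO library was the shallowest. Between 15 and 33 kept barcodes were shared by each pair of libraries. Cells were assigned to classes by fixed marker lists that contain none of the 8 genes, and 11 classes are described. The mEndo-like class (mural endocardium) held 2769 cells, the cvEC-like class (coronary endothelium) 1574, the vEndo-like class (valve endocardium) 896, the compact-like cardiomyocytes 5479 and the trabecular-like cardiomyocytes 3092. These classes are ranges of a marker score: 144 mEndo-like, 78 vEndo-like, 508 compact-like and 270 trabecular-like cells lay within 0.1 of the score cut. Among the 10 leading genes of each class, 0 were markers of another class. As medians over cells, compact-like cells had 0.71 of *Hey2*, 2.90 of *Tnnt1*, and 0 of *Nppa* and *Bmp10*, and trabecular-like cells had 3.72 of *Nppa*, 0.56 of *Tnnt1* and 0 of *Bmp10*, which 44.2% of them carried, on a natural log scale of normalised counts. The mEndo-like cells had medians of 2.25 for *Npr3*, 2.06 for *Adgrg6*, 1.11 for the mesenchymal gene *Col3a1* and 0.92 for *Postn*. *Lyz2*, a myeloid gene, was among the leading genes of the trabecular-like class, *Fabp7*, a glial gene, led the class gated by mural cell markers, and the Tcf21-type class had 0 of its own markers among its 10 leading genes. Levels are given in CPM, which is the share that a gene takes of all UMIs counted for a class in 1 library, on the usual scale of that unit. Values stand in the order control 1, control 2, *Ets1* eKO 1 and *Ets1* eKO 2.

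*Ets1*, the deleted gene, was checked first. In mEndo-like cells its level was 271, 258, 122 and 91.9 CPM, and in cvEC-like cells 372, 331, 178 and 124 CPM. In vEndo-like cells it was 262, 264, 100 and 97.2 CPM. All 3 endothelial classes were lower in both *Ets1* eKO libraries, with log2 fold changes of -1.26 ± 0.15, -1.15 ± 0.18 and -1.35 ± 0.15 (SE) and adjusted p of 0.00229, 0.00642 and 0.000936 (edgeR quasi-likelihood test, Benjamini-Hochberg, n = 2 libraries per group). In mesenchymal cells, which are partly derived from endocardium, *Ets1* was 90.4, 81.8, 57.6 and 54.0 CPM and did not pass the test (log2 fold change -0.53 ± 0.12, adjusted p = 0.190). Whether the counted 3′ sequence lies in the deleted part of *Ets1* is not given in the sources used here, so the remaining counts are not a measure of deletion efficiency.

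**Figure D1:**
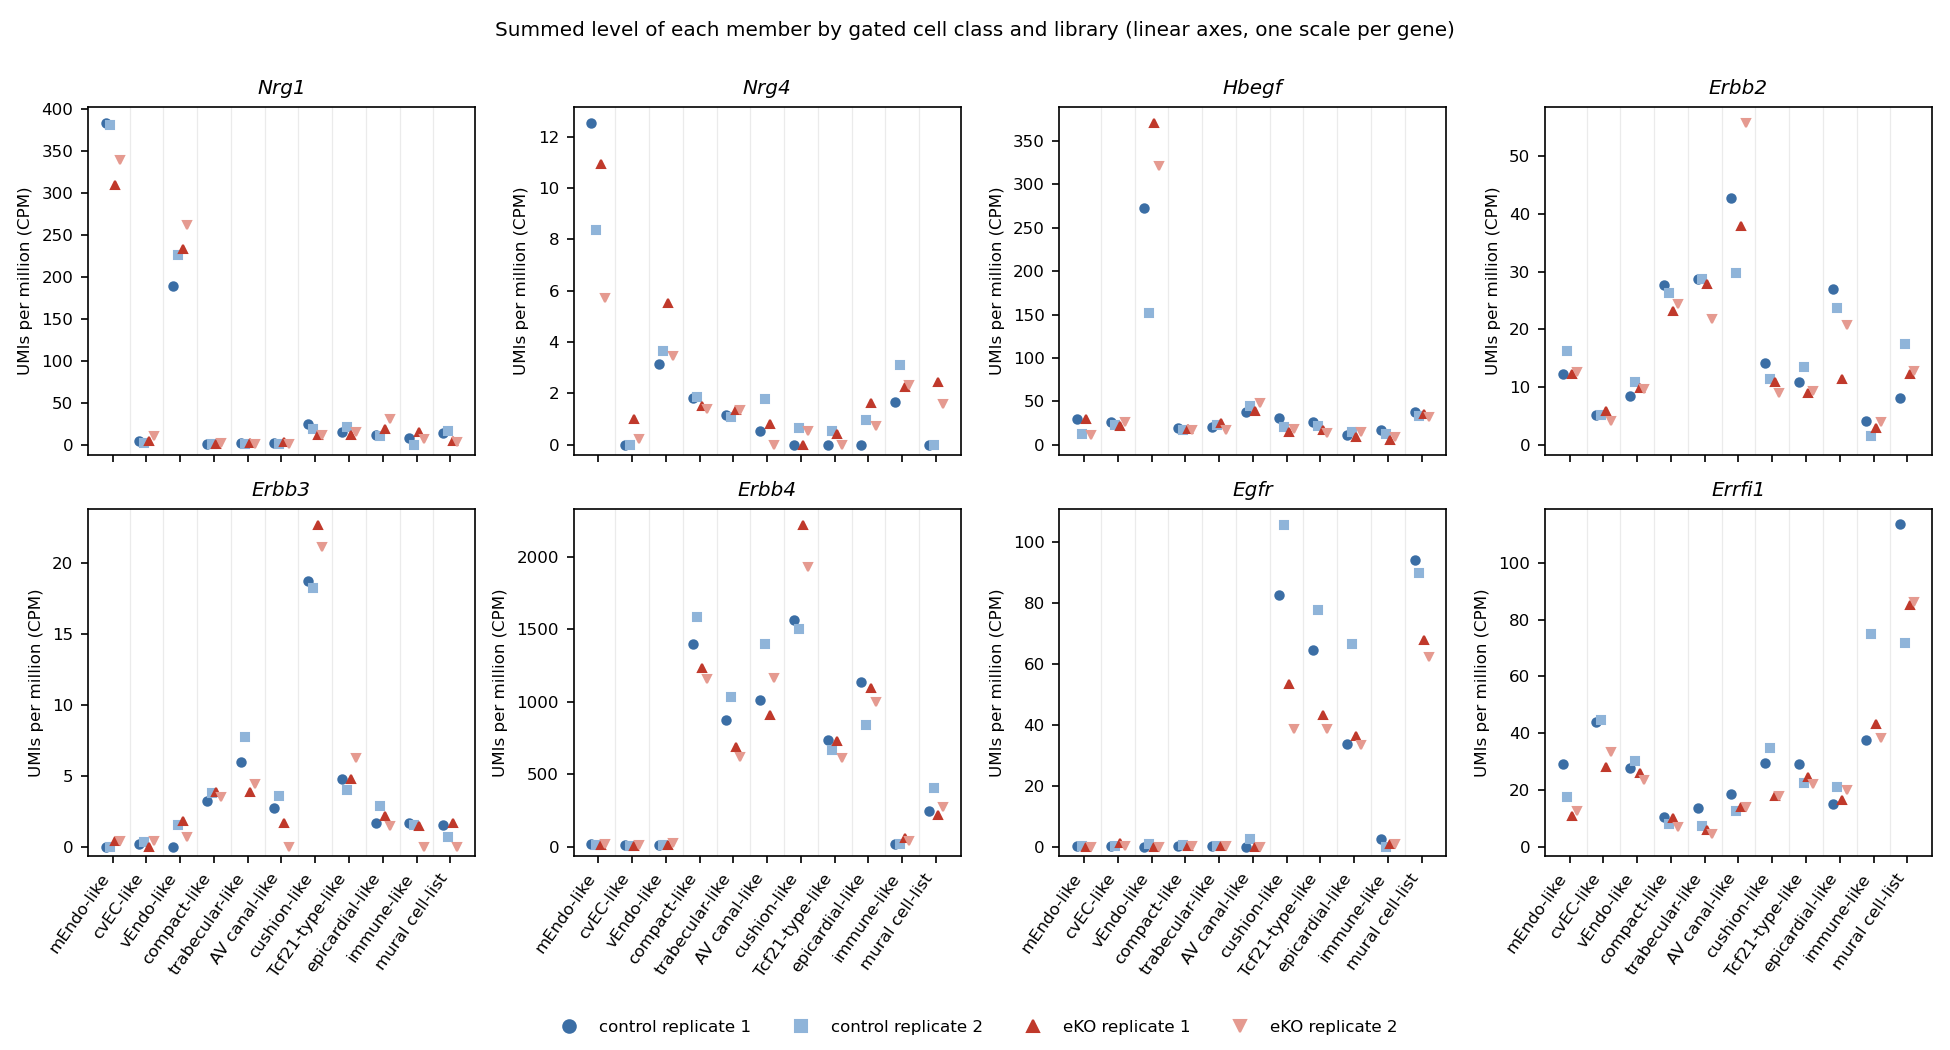
Level of each of the 8 genes in 11 cell classes, as CPM on linear axes with a scale for each gene, with 1 point per library coloured by genotype. *Nrg1* is highest in mEndo-like and vEndo-like cells, *Hbegf* in vEndo-like cells, *Erbb4* in cushion-like and compact-like cells, and *Egfr* lies near 0 outside mesenchymal, epicardial-like and mural list cells.

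The ligand *Nrg1* was an endocardial transcript in these ventricles. Of its 12900 UMIs in all cells, the mEndo-like class held 56.8%, 51.2%, 53.2% and 48.6% in the 4 libraries, the vEndo-like class 9.86% to 14.0%, and endothelial cells that fell in no named subclass 18.4% to 28.7%. Its mean level was 353 ± 35.5 CPM in mEndo-like cells and 227 ± 29.8 CPM in vEndo-like cells (SD, n = 4 libraries), and every mEndo-like value was above every vEndo-like value. Mean levels were 17.8 ± 9.17 CPM in epicardial-like, 16.8 ± 6.599 in cushion-like and 15.7 ± 3.93 in Tcf21-type cells, which did not differ beyond their spread. Cardiomyocytes were at 1.34 ± 0.37 CPM (compact-like) and 1.41 ± 0.53 CPM (trabecular-like).

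In mEndo-like cells *Nrg1* was at 383 and 381 CPM in the control libraries and at 309 and 339 CPM in the *Ets1* eKO libraries. Both *Ets1* eKO libraries lay below both controls, but the difference did not pass the test. The log2 fold change was -0.19 ± 0.14 (SE, 95% interval -0.49 to 0.12, adjusted p = 0.49, edgeR). This SE comes from the edgeR fit, which shares information on spread over genes, and is not the spread of these values alone. None of the 6 members tested in mEndo-like cells passed the test, against 2.31% of all 12112 genes tested. At an unadjusted p under 0.05 the count was 1, beside 2290 of the 12112 genes, and DESeq2 called 0 members. *Egfr* and *Erbb3* were below the filter there.

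The share of mEndo-like cells with an *Nrg1* UMI was compared after thinning each cell to 2000 UMIs, which left out 13 to 55 shallower cells per library. It was 39.2%, 33.7%, 34.2% and 35.4%, so that both *Ets1* eKO libraries lay between the controls. The difference of -1.66 percentage points had an exact permutation p of 1.0 (two-sided), where 2 against 2 libraries cannot go below 0.333. Without thinning the shares were 61.1%, 60.4%, 52.8% and 51.3%, with median depths of 6732.5, 7163, 6773.5 and 4173 UMIs. In cardiomyocytes, taken as cells that should lack *Nrg1*, the thinned share was 0.115% to 0.365%, and in immune-like cells it was 0% to 1.59%.

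*Nrg1* was lower in cycling than in other mEndo-like cells in all 4 libraries, at 299.6, 285, 228 and 287 CPM against 408, 414, 346 and 363 CPM. The share of mEndo-like cells called cycling was 14.1%, 16.9%, 21.6% and 20.2%. In cells that were not cycling, both *Ets1* eKO libraries were again below both controls. The part of cycling in the *Nrg1* difference was not tested. The Tcf21-type marker list also moved with genotype in this class, with 2 of its 5 genes higher in both *Ets1* eKO libraries, 0 genes at 0 throughout and a summed level of 24.8 to 27.8 CPM in controls and 93.3 to 134 CPM in *Ets1* eKO libraries. The mesenchymal list had 5 of 8 genes higher, none at 0 throughout, and was at 549 to 589 and 854 to 947 CPM. The cardiomyocyte list was 922, 557, 953 and 1193 CPM with 4 of 8 genes higher, the mural cell list 57.3, 49.8, 78.6 and 75.1 CPM with 3 of 6 higher, and the compact list 53.0, 53.9, 70.4 and 66.7 CPM with 2 of 4 higher. The mEndo list itself was 2114, 2089, 1944 and 1825 CPM, with 2 of 6 genes higher and 2 lower. The endothelial list had 4 of 8 genes lower and 1 higher. Their part in the member values was not tested.

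Clusters made without the 8 genes gave another view of the same cells. The largest mEndo-like cluster held 781, 512, 428 and 465 cells and had *Nrg1* at 344, 385, 323 and 440 CPM, so the groups overlapped. A second mEndo-like cluster was made mostly of *Ets1* eKO cells, with 133, 92, 349 and 1103 cells, and had 248, 127, 180 and 211 CPM. In every library *Nrg1* was lower in the second cluster than in the first, and in neither cluster did the genotypes separate. A small cluster left unnamed had the highest *Nrg1* in CPM, at 1005, 778, 922 and 1270 in 67, 60, 88 and 96 cells. These rest on 133, 126, 156 and 154 *Nrg1* UMIs, beside 2227, 1748, 1141 and 1105 in the largest mEndo-like cluster. In every library this was fewer *Nrg1* UMIs per cell than in that cluster, so the higher CPM goes with shallower cells.

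**Figure D2:**
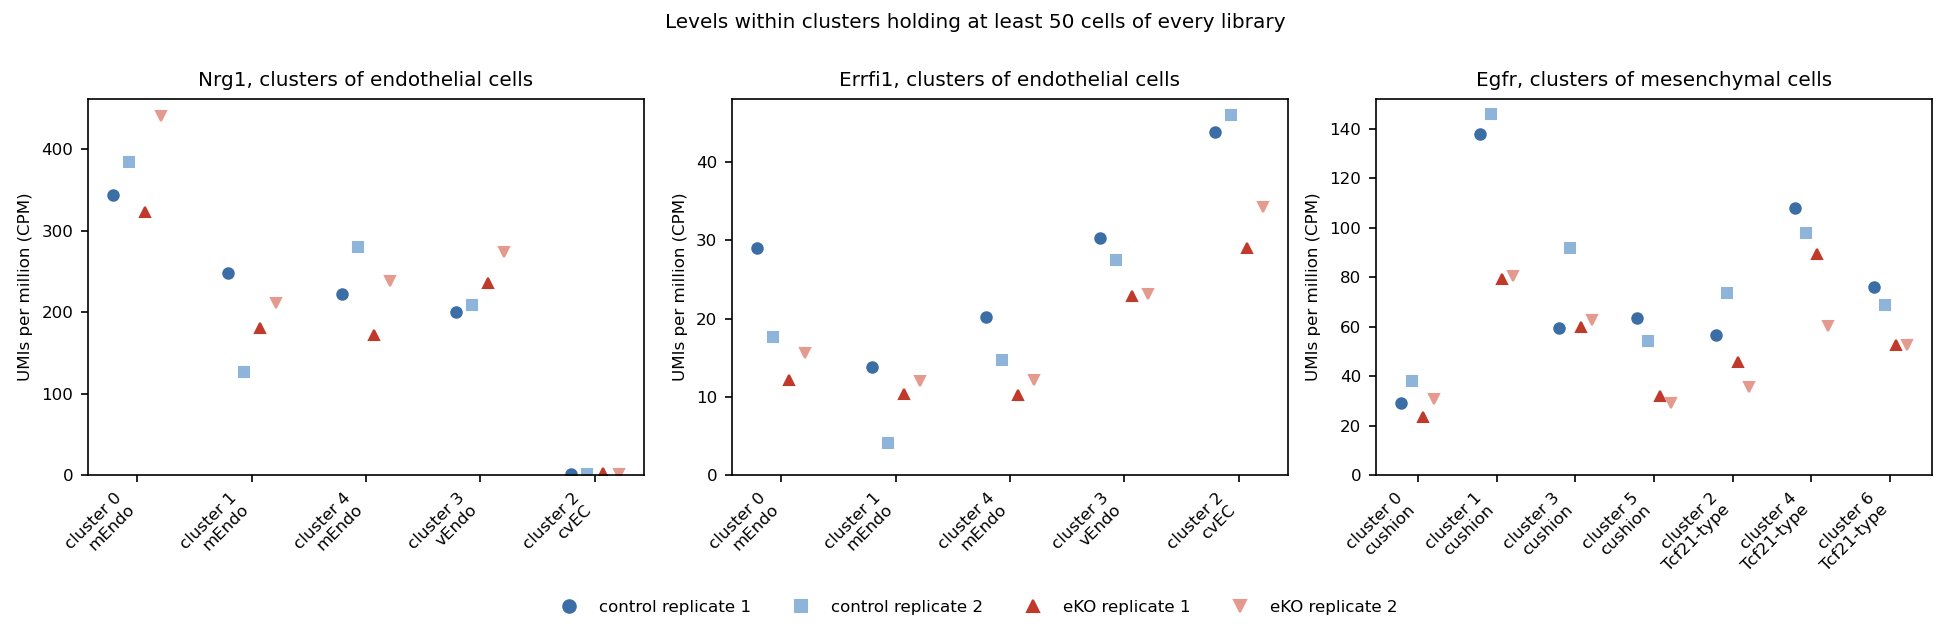
Level in CPM of *Nrg1* and *Errfi1* in endothelial clusters and of *Egfr* in mesenchymal clusters, with 1 point per library coloured by genotype. *Nrg1* overlaps between genotypes in both large mEndo-like clusters, whereas *Errfi1* in the largest mEndo-like cluster and *Egfr* in the control-rich cushion-like cluster are lower in both *Ets1* eKO libraries.

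In vEndo-like cells the order was the other way, with *Nrg1* at 189 and 226 CPM in controls, against 233 and 262 CPM in the eKO libraries. The groups did not overlap and the difference did not pass the test (log2 fold change 0.31 ± 0.16, 95% interval -0.02 to 0.65, adjusted p = 0.414, edgeR). The thinned share of vEndo-like cells with an *Nrg1* UMI was 17.3%, 15.0%, 21.2% and 19.3%, a difference of 4.10 points with the smallest exact permutation p this design allows, 0.333. The difference of the *Ets1* eKO change between mEndo-like and vEndo-like cells was tested itself and missed the threshold (-0.50 ± 0.13, adjusted p = 0.0738, edgeR), though it passed with clusters in place of gates (-0.64, adjusted p = 0.00788) and with no count filter (adjusted p = 0.0190). The interaction test called 0 of 6 members there (0 by DESeq2), against 1.02% of all genes, and 3 were under 0.05 unadjusted, beside 1143 of 12118 genes.

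In cvEC-like cells *Nrg1* was rare, at 23, 8, 18 and 48 UMIs or 4.16, 2.56, 4.54 and 10.4 CPM. The log2 fold change was 1.18 ± 0.42 with an adjusted p of 0.248 (edgeR). It passed without the first *Ets1* eKO library (1.63, adjusted p = 0.00312) and without the count filter (adjusted p = 0.0271), and was 0.43 without the second *Ets1* eKO library. In the cvEC-like cluster *Nrg1* was 1.52 to 2.05 CPM and the genotypes overlapped. The summed mEndo marker list in cvEC-like cells was 36.2, 41.0, 56.5 and 65.7 CPM, and its part in the *Nrg1* values was not tested. The difference of the change between mEndo-like and cvEC-like cells passed the test (-1.32 ± 0.34, adjusted p = 0.0414, edgeR), with 1 of 6 members called lower against 1.08% of all genes called lower. The call was lost with clusters in place of gates (-0.46, adjusted p = 0.791) and without the second *Ets1* eKO library (-0.66, adjusted p = 0.821), the first control (-1.82, adjusted p = 0.311) or the second control (-1.09, adjusted p = 0.203). It was also lost with doublets kept (-0.99, adjusted p = 0.218), a wider gate margin (-1.93, adjusted p = 0.0965) or cycling cells left out (-1.50, adjusted p = 0.0690). DESeq2 called 0 of the 6 members, and 3 had an unadjusted p under 0.05, beside 1518 of 12577 genes.

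Outside the endothelium, *Nrg1* was compared in mesenchymal cells, where it was at 23.5, 25.1, 11.5 and 11.5 CPM. Both *Ets1* eKO libraries lay below both controls, and the log2 fold change was -0.99 ± 0.14 (unadjusted p = 0.000103, adjusted p = 0.107, edgeR). Of the 7 members tested in mesenchymal cells, edgeR called 0 and DESeq2 called 2, *Nrg1* (adjusted p = 0.0114) and *Egfr*, 3 had an unadjusted p under 0.05, and edgeR called 0.0275% of all genes. Over all 14546 genes DESeq2 called 117, and 1634 were under 0.05 unadjusted. Within the 7 named mesenchymal clusters *Nrg1* had both *Ets1* eKO libraries below both controls in 4. These were 3 Tcf21-type clusters, at 19.7, 15.0, 4.66 and 8.87 CPM, at 26.0, 21.5, 20.0 and 9.71 CPM and at 16.4, 26.9, 9.70 and 13.1 CPM, and a cushion-like one at 17.8, 19.4, 4.62 and 8.67 CPM. The cushion-like cluster with mostly control cells (449, 727, 106 and 81 cells) overlapped, at 52.4, 27.8, 33.9 and 24.1 CPM, as did the largest one, at 8.09, 7.74, 9.60 and 7.40 CPM. In 1 cushion-like cluster both *Ets1* eKO libraries were above both controls, at 4.39, 3.40, 8.64 and 8.82 CPM. Of the unnamed mesenchymal clusters, 1 held 39, 230, 0 and 4 cells, nearly all from the controls. Most were from the second control, where *Nrg1* was 50.3 CPM and *Egfr* 134 CPM. The *Nrg1* difference passed without the first control (-1.01, adjusted p = 0.00103) or the second (-0.97, adjusted p = 0.00182), with total count scaling (-1.08, adjusted p = 0.0435) and without the count filter (adjusted p = 1.86e-06). In Tcf21-type cells alone its log2 fold change was -0.41 (adjusted p = 0.676). Other values moved with genotype in mesenchymal cells: the cushion marker list was 620, 697, 554 and 545 CPM with 3 of 5 genes lower in both *Ets1* eKO libraries, the mural cell list was 181, 199, 166 and 145 CPM with 2 of 6 lower, and the median mitochondrial share was 2.35%, 2.44%, 1.92% and 2.05%. Their part in the *Nrg1* and *Egfr* values was not tested. In epicardial-like cells *Nrg1* was 11.8, 10.4, 18.5 and 30.5 CPM from 11 to 41 UMIs per library (log2 fold change 1.17 ± 0.37, adjusted p = 0.376, edgeR).

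*Nrg4*, a ligand of ErbB4, was rare, with 611 UMIs in all cells. Its highest level was in mEndo-like cells, at 12.5, 8.35, 11.0 and 5.73 CPM, where the groups overlapped (log2 fold change -0.30 ± 0.33, adjusted p = 0.662, edgeR). In vEndo-like cells it was 3.15 to 5.53 CPM and below the filter, and in cvEC-like cells 0, 0, 4 and 1 UMIs were counted. Compact-like and trabecular-like cardiomyocytes had 1.398 to 1.88 and 1.09 to 1.37 CPM.

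*Hbegf* marked the vEndo-like class, at 279 ± 93.7 CPM (SD, n = 4 libraries). The next class, atrioventricular canal-like cardiomyocytes, was at 42.6 ± 4.64 CPM. In vEndo-like cells the control libraries had 273 and 152 CPM and the *Ets1* eKO libraries 371 and 321 CPM. Both *Ets1* eKO values were higher, with a log2 fold change of 0.76 ± 0.23 that did not pass the adjusted threshold (unadjusted p = 0.0057, adjusted p = 0.176, edgeR). Without the first control library it was 1.26 (adjusted p = 0.00311), and no filter, a replicate block or leaving out either *Ets1* eKO library also brought it past the threshold. Without the second control library it was 0.39 (adjusted p = 0.777). In that class edgeR called 0 of 5 members, with none by DESeq2, against 0.537% of all genes, and 1 was under 0.05 unadjusted, beside 1432 of 10624 genes. The cvEC marker list moved with genotype in vEndo-like cells, at 2443 and 2068 CPM in controls, against 3065 and 4263 CPM in the eKO libraries with 2 of its 6 genes higher in both, and the cardiomyocyte list had 4 of 8 genes higher. The cushion list was 587, 562, 524 and 457 CPM with 2 of 5 genes lower. The cycling list had 6 of 6 genes lower, at 1507, 1599, 1310 and 1156 CPM, and the median mitochondrial share was 3.27%, 3.40%, 2.56% and 2.63%. Their part in the *Hbegf* and *Nrg1* values was not tested.

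In mEndo-like cells *Hbegf* did not follow genotype, at 29.7, 12.4, 29.6 and 11.9 CPM. The first library of each group was high and the second was low. The difference of the change between mEndo-like and vEndo-like cells was -0.75 ± 0.25 (adjusted p = 0.218, edgeR). It passed the test without the first *Ets1* eKO library (-1.41, adjusted p = 5.63e-06) and without the count filter (adjusted p = 0.00892), and was -0.30 without the second *Ets1* eKO library. Compact-like cells had 16.8 to 19.1 CPM and trabecular-like cells 17.6 to 25.0 CPM, and both overlapped between genotypes.

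**Figure D3:**
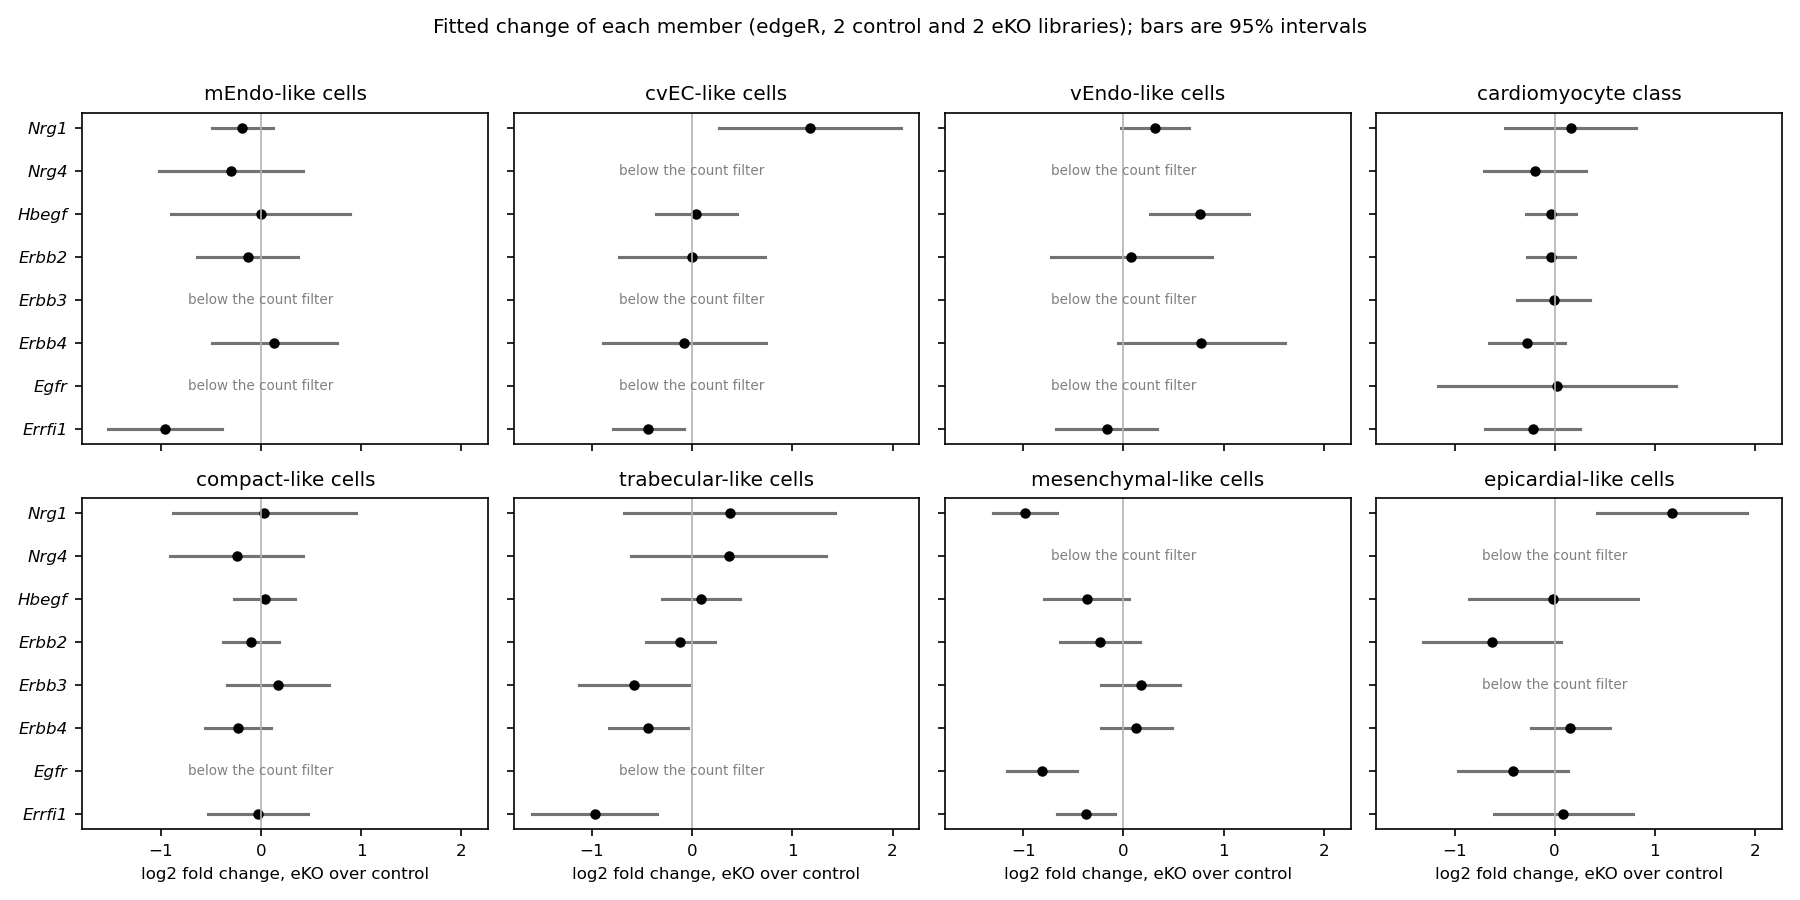
Log2 fold change of each gene in *Ets1* eKO against control in 8 cell classes, with bars for the 95% interval of the edgeR fit over 2 libraries per group. *Nrg1* in mEndo-like cells has an interval that spans 0. The intervals of *Nrg1* and *Egfr* in mesenchymal cells lie below 0, as do those of *Errfi1* in mEndo-like, cvEC-like, mesenchymal and trabecular-like cells. Those of *Erbb3* and *Erbb4* in trabecular-like cells also lie below 0. The intervals of *Nrg1* in cvEC-like and epicardial-like cells and of *Hbegf* in vEndo-like cells lie above 0. No adjusted p was under 0.05.

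Mean levels of the receptor *Erbb4* were 1804 ± 336 CPM in cushion-like, 1344 ± 190 in compact-like, 1121 ± 211 in atrioventricular canal-like, 1018 ± 132 in epicardial-like, 804 ± 187 in trabecular-like and 686 ± 59.1 in Tcf21-type cells (SD, n = 4 libraries). Each pair of neighbours in this order overlapped between libraries, whereas every compact-like value was above every epicardial-like value. Endothelial classes were at 9.35 to 14.6 CPM and immune-like cells at 35.8 ± 17.3 CPM. *Nrg1* was at 309 to 383 CPM in mEndo-like cells and 1.02 to 1.52 CPM in all cardiomyocytes. *Erbb4* was at 9.06 to 16.9 CPM in mEndo-like cells and 899 to 1365 CPM in all cardiomyocytes.

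*Erbb4* was higher in compact-like than in trabecular-like cells. In compact-like cells it was 1401, 1584, 1236 and 1153 CPM, and in trabecular-like cells 876, 1032, 691 and 619 CPM. Every library showed the difference, with log2 ratios of 0.68, 0.62, 0.84 and 0.90. The fitted log2 fold change was 0.68 ± 0.04, or 1.60-fold (adjusted p = 7.97e-12, edgeR with library as a block), and it stayed between 0.50 and 0.76 under all 13 alternatives, each past the threshold. After thinning to 2000 UMIs, *Erbb4* was detected in 82.7%, 85.0%, 81.1% and 80.1% of compact-like and in 68.3%, 71.1%, 64.2% and 57.3% of trabecular-like cells, against 2.96% to 5.68% of immune-like cells. Without thinning the shares were 95.1% to 98.0% and 84.9% to 89.0%, at median depths of 7674 to 13336.5 and 7956 to 13074 UMIs. Of the 7 members tested between the classes, 1 was higher (*Erbb4*) and 2 were lower (*Erbb3* and *Hbegf*) in compact-like cells, where 22.9% of all genes were higher and 23.6% lower.

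Both cardiomyocyte classes had lower *Erbb4* values in the *Ets1* eKO libraries than in the controls, but the differences did not pass the test. In compact-like cells the log2 fold change was -0.23 ± 0.15 (adjusted p = 0.575), and in trabecular-like cells it was -0.44 ± 0.18 (unadjusted p = 0.0328, adjusted p = 0.295, edgeR). The groups did not overlap in either class. In trabecular-like cells the call was made only without the first *Ets1* eKO library (adjusted p = 0.0272). Over all cardiomyocytes *Erbb4* was 1139, 1365, 1003 and 899 CPM (log2 fold change -0.28 ± 0.16, adjusted p = 0.449, edgeR). The difference of the change between the classes was 0.20 ± 0.07 (adjusted p = 0.640, edgeR).

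Few genes of any kind passed in cardiomyocytes. EdgeR called 0 of 8 members in all cardiomyocytes (0 by DESeq2, 0.00627% of all genes), and 0 were under 0.05 unadjusted, beside 1945 of 15937 genes. It called 0 of 7 in compact-like cells (0 by DESeq2, 0.0145%), with 0 under 0.05 unadjusted beside 1153 of 13758 genes, and 0 of 7 in trabecular-like cells, where DESeq2 called 0, 0.0317% of all genes were called, and 3 members were under 0.05 unadjusted, beside 1955 of 12634 genes. The test of the difference between both classes called 0 of 7 (0 by DESeq2, 0.073% of all genes), and 3 were under 0.05 unadjusted, beside 948 of 13704 genes. The median mitochondrial share was lower in the *Ets1* eKO libraries, at 5.41%, 5.55%, 4.28% and 4.19% in compact-like and 7.09%, 7.28%, 5.68% and 5.57% in trabecular-like cells, and its part in these values was not tested. The summed trabecular marker list in trabecular-like cells was 8633, 9027, 10055 and 13061 CPM, and the compact list in compact-like cells was 2796, 2927, 3273 and 3366 CPM.

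*Erbb4* in mesenchymal cells did not follow genotype as a whole, at 1039, 1098, 1162 and 1032 CPM (log2 fold change 0.13 ± 0.15, adjusted p = 0.761, edgeR). Cushion-like cells alone had 1566, 1500, 2220 and 1930 CPM, both *Ets1* eKO libraries above both controls. Within the largest cushion-like cluster the values were 2115, 1959, 2325 and 1950 CPM and overlapped. In the smallest cushion-like cluster they were 1314, 1229, 1620 and 1409 CPM, with both *Ets1* eKO libraries above both controls. The cushion-like clusters differed in size between genotypes (449, 727, 106 and 81 cells in one, 170, 154, 324 and 342 in another), and the second of these had 2281 to 2650 CPM while the first had 1099 to 1634 CPM. The part of this shift in the cushion-like values was not tested.

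*Erbb2*, the receptor without a ligand of its own, was highest in atrioventricular canal-like cardiomyocytes, at 41.6 ± 10.9 CPM, followed by trabecular-like (26.8 ± 3.39), compact-like (25.4 ± 2.01) and epicardial-like cells (20.7 ± 6.70, SD, n = 4 libraries). The last 3 of these did not differ beyond their spread. In compact-like cells *Erbb2* was 27.7, 26.4, 23.2 and 24.5 CPM, and in trabecular-like cells 28.8, 28.8, 27.9 and 21.8 CPM. Both *Ets1* eKO libraries lay below both controls in each class, by amounts within the error of the fit (log2 fold changes -0.10 ± 0.12 and -0.12 ± 0.16, adjusted p of 0.769 and 0.727, edgeR). Between the classes the log2 fold change was -0.14 ± 0.07 (adjusted p = 0.113, edgeR, 0.0333 to 0.482 over the alternatives).

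At 2000 UMIs per cell *Erbb2* was detected in 3.64% to 5.59% of compact-like and trabecular-like cells, so joint detection is limited by the depth of *Erbb2*. In compact-like cells *Erbb2* and *Erbb4* were found together in 4.24%, 4.69%, 2.90% and 4.32% of cells. The product of their separate shares was 4.41%, 4.50%, 3.14% and 4.48%. In trabecular-like cells the shares were 3.64%, 4.41%, 3.72% and 2.00%, beside products of 2.95%, 3.92%, 3.52% and 2.08%. The joint share was below the product in 3 of 4 libraries of compact-like cells and above it in 3 of 4 of trabecular-like cells. Over all cardiomyocytes it was 3.97%, 4.09%, 3.80% and 3.84%, beside products of 3.71%, 3.97%, 3.73% and 3.55%, so above in every library. These gaps were small and were not tested against counting error.

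*Erbb3* was highest in cushion-like cells, at 18.7, 18.2, 22.7 and 21.1 CPM. Among cardiomyocytes it was lower in compact-like cells, at 3.26, 3.76, 3.83 and 3.49 CPM, than in trabecular-like cells, at 6.00, 7.77, 3.87 and 4.42 CPM. The log2 fold change was -0.69 ± 0.17 (adjusted p = 0.00186, edgeR), it was past the threshold under all 13 alternatives, and the compact-like value was the lower in all 4 libraries, with a log2 ratio of -0.01 in the first *Ets1* eKO library. In trabecular-like cells both *Ets1* eKO libraries were below both controls (log2 fold change -0.58 ± 0.25, unadjusted p = 0.0405, adjusted p = 0.307, edgeR). These values rest on 26 to 67 UMIs per library.

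*Hbegf* was also lower in compact-like than in trabecular-like cells (log2 fold change -0.32 ± 0.08, adjusted p = 0.00285, edgeR), with per-library ratios of -0.09, -0.38, -0.44 and -0.06 on the log2 scale. *Nrg1*, *Nrg4*, *Erbb2* and *Errfi1* did not pass, and *Egfr* was below the filter with 1 to 5 UMIs per library in each class.

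**Figure D4:**
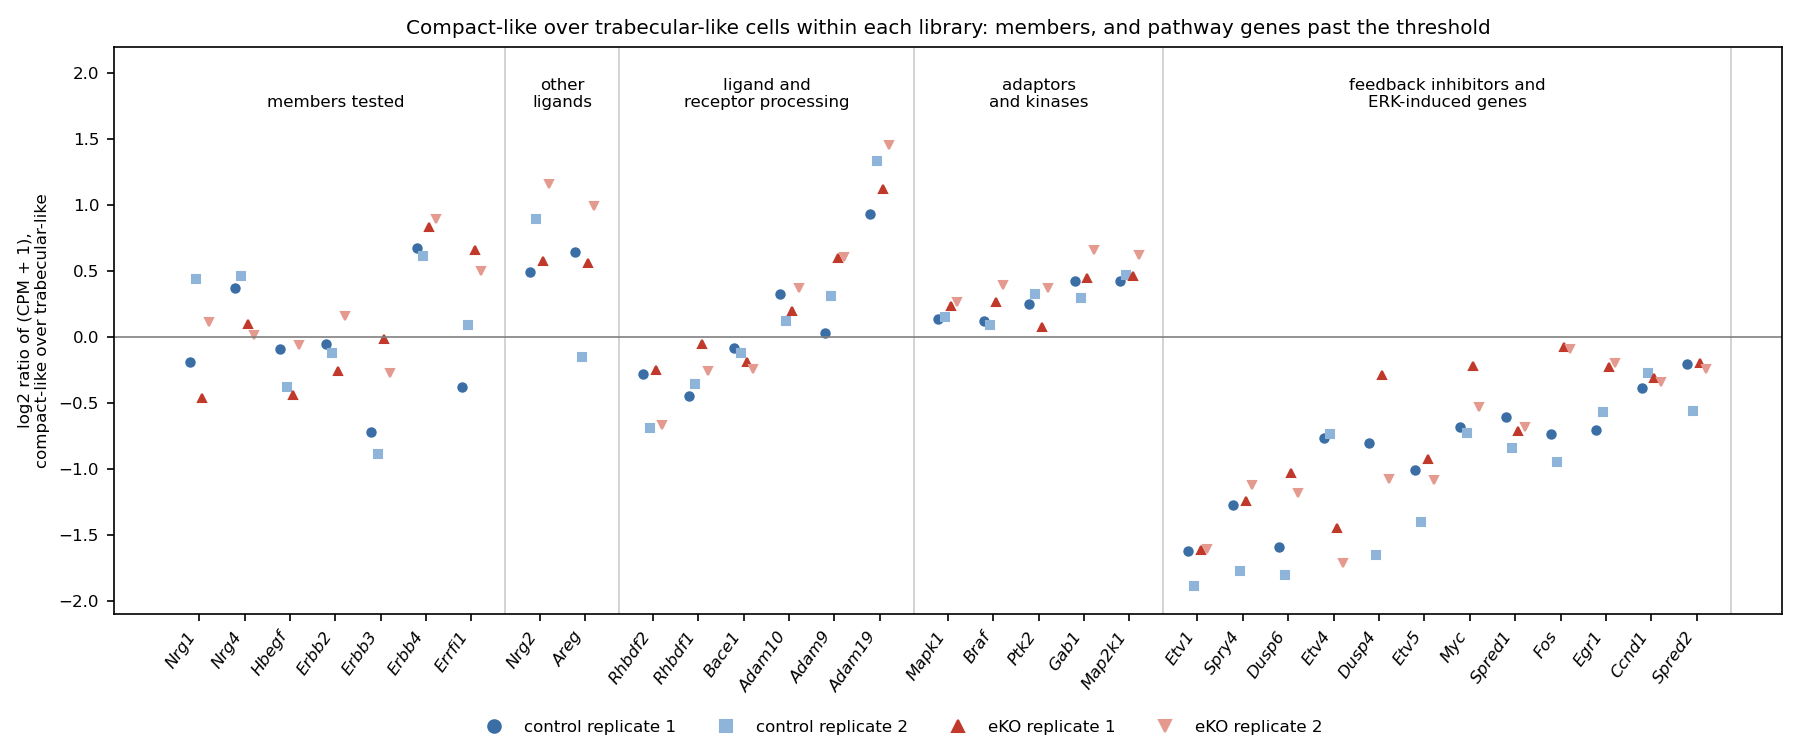
Log2 ratio of compact-like to trabecular-like level, computed from CPM + 1, with 1 point per library coloured by genotype, for the 7 genes tested and for the pathway genes past the threshold. *Erbb4* lies above 0 in all 4 libraries, at 0.62 to 0.90, and the feedback and ERK-induced genes lie below 0 in all 4.

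*Egfr* was a receptor of mesenchymal and mural cells. Mean levels were 78.6 ± 15.8 CPM in cells gated by mural cell markers, 70.0 ± 30.0 in cushion-like, 56.0 ± 18.4 in Tcf21-type and 42.5 ± 16.0 in epicardial-like cells (SD, n = 4 libraries). Neighbours in this order overlapped, while the mural marker class was above epicardial-like cells within each of the 4 libraries. In compact-like, trabecular-like and endothelial cells it was 0 to 1.26 CPM, from at most 5 UMIs per library.

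In mesenchymal cells *Egfr* was 72.4 and 96.0 CPM in controls, against 47.9 and 41.8 CPM in the eKO libraries. Both *Ets1* eKO libraries were below both controls, with a log2 fold change of -0.81 ± 0.15 (unadjusted p = 0.000677, adjusted p = 0.156, edgeR). DESeq2 called it (adjusted p = 0.00881), as did the fit of cushion-like cells alone (-0.95, adjusted p = 0.0218), of which the values were 82.5, 106, 53.3 and 38.6 CPM. Tcf21-type cells had 64.4, 77.8, 43.1 and 38.6 CPM and the mural marker class 94.2, 89.8, 67.9 and 62.3 CPM, with both *Ets1* eKO libraries below both controls in each. The cardiomyocyte list in the mural marker class was 2623, 2594, 3744 and 5771 CPM with 6 of 8 genes higher, and its part was not tested. Without the first control library the change was -0.98 (adjusted p = 0.000111), and without the second it was -0.63 (adjusted p = 0.104).

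*Egfr* also followed genotype within several mesenchymal clusters. The cushion-like cluster with mostly control cells had 138, 146, 79.1 and 80.3 CPM, and a second had 63.5, 54.1, 31.8 and 29.2 CPM. In 3 Tcf21-type clusters the values were 56.8, 73.5, 45.8 and 35.5 CPM, then 108, 97.9, 89.2 and 60.4 CPM, and 76.1, 68.7, 52.6 and 52.4 CPM. All of these had both *Ets1* eKO libraries below both controls. The largest cushion-like cluster (29.1, 38.1, 23.5 and 30.7 CPM) and another one (59.3, 91.9, 59.9 and 62.7 CPM) overlapped. The cluster with mostly control cells had the highest *Egfr* of the cushion-like clusters, and the part of cluster sizes in the mesenchymal difference was not tested.

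The inhibitor *Errfi1* was highest in the mural marker class (89.2 ± 17.6 CPM) and in immune-like cells (48.5 ± 17.7 CPM, SD, n = 4 libraries), and was lowest in trabecular-like (7.89 ± 4.09) and compact-like cardiomyocytes (8.76 ± 1.69). In mEndo-like cells it was 29.3 and 17.4 CPM in controls, against 11.0 and 12.5 CPM in the eKO libraries. Both *Ets1* eKO libraries were lower, at a log2 fold change of -0.96 ± 0.26 (unadjusted p = 0.00357, adjusted p = 0.0860, edgeR). The controls themselves differed: without the second control the change was -1.24 (adjusted p = 0.00452), and without the first it was -0.53 (adjusted p = 0.510).

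In cvEC-like cells *Errfi1* was 43.9, 44.5, 28.0 and 33.5 CPM (log2 fold change -0.44 ± 0.16, adjusted p = 0.270, edgeR). Both *Ets1* eKO libraries were again lower. EdgeR called 0 of 5 members in this class, with none by DESeq2, against 1.49% of all genes. At an unadjusted p under 0.05 there were 2 of the 5, beside 1557 of 11389 genes. The vEndo-like values of 27.8, 30.2, 25.8 and 23.6 CPM were also lower in both *Ets1* eKO libraries, with a smaller difference (-0.17 ± 0.23, adjusted p = 0.801, edgeR). In clusters, *Errfi1* was 29.0, 17.6, 12.2 and 15.5 CPM in the largest mEndo-like cluster and 43.8, 46.0, 29.0 and 34.2 CPM in the cvEC-like one, both with the eKO libraries lower. They were also lower in the smallest mEndo-like cluster, at 20.1, 14.6, 10.2 and 12.1 CPM. In the remaining mEndo-like cluster it was 13.8, 4.09, 10.3 and 12.0 CPM, where the genotypes overlapped and the second control was lowest.

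In trabecular-like cells *Errfi1* was 13.8, 7.31, 5.96 and 4.52 CPM. The first control library was high, and the log2 fold change was -0.97 ± 0.29 (unadjusted p = 0.0051, adjusted p = 0.254, edgeR). Without the second control library it was -1.30 (adjusted p = 0.00200), without the first *Ets1* eKO library -1.12 (adjusted p = 0.000533), and without the first control -0.39 (adjusted p = 0.724). Compact-like cells overlapped between genotypes, at 10.4, 7.86, 9.98 and 6.83 CPM, and the difference of the change between both classes was 0.91 ± 0.24 (unadjusted p = 0.0012, adjusted p = 0.350, edgeR). That difference passed with clusters in place of gates (1.10, adjusted p = 0.0212) and was 0.55 without the first control. The immune marker list in trabecular-like cells was 93.1, 52.7, 48.3 and 80.2 CPM, also highest in the first control library. It includes *Lyz2*, a leading gene of that class, and its part was not tested. In mesenchymal cells *Errfi1* was 29.3, 30.3, 22.3 and 21.0 CPM (log2 fold change -0.37 ± 0.12, adjusted p = 0.352, edgeR). In epicardial-like cells edgeR called 0 of 6 members, with none by DESeq2, against 0.179% of all genes, and 1 was under 0.05 unadjusted, beside 682 of 10053 genes.

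A list of 55 further genes of the pathway was read in 4 groups: other EGF-family ligands (8), ligand and receptor processing (8), adaptors and kinases (19), and feedback inhibitors and ERK-induced genes (20). Between genotypes 2 of 49 tested were higher and 2 lower in mEndo-like cells (2.31% of all genes called), 1 of 47 was higher in cvEC-like cells (1.49%), and 1 of 44 was lower in vEndo-like cells (0.537%). In these classes 14, 14 and 9 list genes had an unadjusted p under 0.05, beside 2290 of 12112, 1557 of 11389 and 1432 of 10624 over all genes. DESeq2 called 4, 1 and 1 list genes, beside 245, 75 and 45 over all genes. EdgeR called 0 of 52 in all cardiomyocytes, 0 of 51 in compact-like, 0 of 49 in trabecular-like, 0 of 53 in mesenchymal and 0 of 40 in epicardial-like cells. In these 5 the count at an unadjusted p under 0.05 was 11, 5, 9, 15 and 2, beside 1945 of 15937, 1153 of 13758, 1955 of 12634, 1634 of 14546 and 682 of 10053 over all genes, and DESeq2 called 0 list genes in each. The median log2 fold change of the list was -0.13 in mEndo-like, -0.20 in cvEC-like, -0.10 in compact-like and -0.16 in trabecular-like cells, beside 0.00, 0.01, 0.01 and 0.01 over all genes tested.

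*Fos*, an immediate early gene, fell in mEndo-like cells, at 309, 203, 111 and 87.2 CPM (log2 fold change -1.32 ± 0.19, adjusted p = 0.00525, edgeR). *Egr1*, another immediate early gene, was 212, 177, 119 and 108 CPM there (-0.73 ± 0.14, adjusted p = 0.0209) and 398, 286, 183 and 137 CPM in vEndo-like cells (-1.03 ± 0.20, adjusted p = 0.0413). The median mitochondrial share of mEndo-like cells was 3.80%, 4.01%, 2.96% and 2.94%. Its part, and that of the trypsin dissociation, in these *Fos* and *Egr1* values was not tested. All these values were lower in both *Ets1* eKO libraries, and *Egr1* lost the call in mEndo-like cells without the first control or the second *Ets1* eKO library (highest adjusted p 0.216) and in vEndo-like cells in 4 of 13 alternatives. *Etv4*, an ETS factor induced by ERK, rose in mEndo-like cells, at 1.47, 4.05, 11.4 and 9.21 CPM (2.00 ± 0.40, adjusted p = 0.0299), and in cvEC-like cells, at 16.3, 14.7, 39.1 and 35.03 CPM (1.32 ± 0.18, adjusted p = 0.00262). *Adam12*, a metalloprotease able to shed HB-EGF, rose in mEndo-like cells, at 26.9, 38.4, 65.7 and 69.8 CPM (1.11 ± 0.19, adjusted p = 0.0122, edgeR). The *Etv4* call in mEndo-like cells was lost without the first control or the second *Ets1* eKO library (highest adjusted p 0.131), and in cvEC-like cells with cycling cells left out (adjusted p = 0.203). The *Adam12* call was lost without the first control (adjusted p = 0.0748). The mesenchymal, Tcf21-type, cardiomyocyte and mural cell lists given above for mEndo-like cells moved with the same genotype difference, and their part in the *Fos*, *Egr1*, *Etv4* and *Adam12* values was not tested. In vEndo-like cells the cycling list was 1507, 1599, 1310 and 1156 CPM with 6 of 6 genes lower, and the cvEC list 2443, 2068, 3065 and 4263 CPM. The median mitochondrial share there was 3.27%, 3.40%, 2.56% and 2.63%. The part of these values in the vEndo-like *Egr1* value was not tested. In cvEC-like cells the compact list was 58.6, 44.8, 112 and 86.3 CPM and the mEndo list 36.2, 41.0, 56.5 and 65.7 CPM. The cvEC list was 10829, 9609, 12977 and 15046 CPM there, and the cushion list 17.7, 22.7, 8.83 and 11.5 CPM. The cardiomyocyte list had 3 of 8 genes higher in both *Ets1* eKO libraries. The median mitochondrial share was 2.56%, 2.65%, 2.07% and 2.08%. The part of these values in the *Etv4* value there was not tested. Members of the feedback and ERK-induced group therefore went in both directions in mEndo-like cells.

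Between compact-like and trabecular-like cells, the feedback and ERK-induced genes that passed the test all had 1 direction. Of the 19 tested, 0 were higher and 12 were lower in compact-like cells, with a median log2 fold change of -0.52 beside -0.0009 over all genes. Each of the 12 was lower in all 4 libraries. Other values differed between the classes in every library: the immune marker list was 6.85 to 14.1 CPM in compact-like against 48.3 to 93.1 CPM in trabecular-like cells, and the median mitochondrial share was 5.41%, 5.55%, 4.28% and 4.19% against 7.09%, 7.28%, 5.68% and 5.57%. Cycling cells made up 43.5% to 44.3% of compact-like and 24.5% to 29.2% of trabecular-like cells, and with cycling cells left out 11 of the 19 were lower and 0 higher. The immune list includes *Lyz2*, a leading gene of the trabecular-like class. The part of the immune list and the mitochondrial share was not tested, nor was that of the trypsin dissociation in *Fos* and *Egr1*. Under the alternatives the count lower was 11 to 13 and the count higher 0. The adaptors and kinases had 5 higher and 0 lower of 19, ligand and receptor processing 3 and 3 of 8, and the other ligands 2 and 0 of 5. Over all genes 22.9% were higher and 23.6% lower. DESeq2 called 16 of the 51 list genes, 11 of them in the feedback and ERK-induced group, and 4299 of all 13704 genes.

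*Etv1* had the smallest p, at 19.1, 17.2, 22.1 and 15.9 CPM in compact-like and 60.9, 66.4, 69.7 and 50.4 CPM in trabecular-like cells (log2 fold change -1.80 ± 0.06, adjusted p = 1.53e-16, edgeR). *Etv1* encodes an ETS factor of the same subfamily as *Etv4* and *Etv5*, which were also lower in compact-like cells (-1.59 ± 0.19 and -1.31 ± 0.12). With clusters in place of gates *Etv4* was -0.32 and lost its call (adjusted p = 0.0864), and the smallest *Etv5* value over the alternatives was -0.52. *Dusp6*, an ERK phosphatase, was 3.48, 3.33, 2.05 and 4.12 against 12.5, 14.1, 5.21 and 10.6 CPM (-1.77 ± 0.14, adjusted p = 3.47e-10). The RAS-ERK inhibitors *Spry4* (-1.78 ± 0.17) and *Spred1* (-0.80 ± 0.06) had the same direction. *Egr1* was 161, 138, 96.4 and 124 against 262, 206, 113 and 142 CPM (-0.52 ± 0.06, adjusted p = 3.12e-07). *Adam19*, a metalloprotease that can process neuregulins, went the other way, at 59.997, 59.6, 62.1 and 45.8 against 31.0, 23.0, 28.0 and 16.1 CPM (1.13 ± 0.07, adjusted p = 9.60e-12, edgeR). In the same libraries *Erbb4* was thus higher and 12 of 19 feedback and ERK-induced genes were lower in the compact-like cells.

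The genes whose levels over classes and libraries were most like *Nrg1* were *Gmds* (Pearson r = 0.923), *Hs3st4* (0.915), *Adgrg6* (0.912), *Npr3* (0.911) and *Ece1* (0.909), among 6873 genes at 20 CPM or more in mEndo-like cells. *Adgrg6* and *Npr3* were used to gate that class. For *Erbb4* they were *Sphkap* (0.959), *Ndrg2* (0.956), *Epb41l3* (0.951), *Gpc3* (0.95) and *Irs1* (0.948), among 7163 genes at 20 CPM or more in cushion-like cells. Each r is a description over 44 points, 11 classes in 4 libraries, on the log2(CPM + 1) scale, and the points of 1 library share its depth and free RNA.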

How the data were processed

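Ventricles of E14.5 embryos were profiled by droplet scRNA-seq (3′ chemistry, trypsin dissociation). The deposited matrices hold raw UMI counts of called barcodes, which the authors made with Cell Ranger 7.1.0 on mm10. Seurat 4.3.0 also stands in the submitters' processing notes. Whether intronic reads were counted is not given in the sources used here.

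Barcodes were kept between 200 and 7000 detected genes, with mitochondrial UMIs up to 20%, ribosomal up to 35% and hemoglobin up to 2%, and 3650 likely doublets were removed by scoring against simulated doublets. Classes were gated by marker lists at a score margin of 0.25 and compared with Leiden clusters (leidenalg 0.10.2). The share of gated cells given the same class by clusters was 93.0% for mEndo-like, 85.4% for cvEC-like and 73.1% for vEndo-like cells. It was 81.5% for compact-like, 59.4% for trabecular-like, 92.8% for cushion-like and 55.2% for Tcf21-type cells. For the mural marker class it was 0.0%, since no cluster took that name. The atrial list took 3522 cells, and 5744 cardiomyocytes, 2087 endothelial and 2859 mesenchymal cells were left in no subclass. They count only in totals of their lineage. Cells are not replicates: the UMIs of a class were added up within each library, and these sums entered the quasi-likelihood test of edgeR 4.0.16 (R 4.3.3), after filterByExpr and TMM scaling, with Benjamini-Hochberg adjustment at 0.05 and 2 libraries per group. Comparisons between classes used library as a block. Libraries are pools of 3 embryos, so p-values measure the spread between pools. DESeq2 1.42.0 and the other settings under the closing section were alternatives. The 8 genes were all named, and of the pathway list those past the threshold, up to 8 by smallest p per comparison. The members and lists were chosen with earlier results of these data known. Intervals of shares and counts cover counting error only.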

Additional observations from a re-analysis of the deposited data

Results flagged for a closer look

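In 5 cases the *Ets1* eKO change differed between classes by a test of the difference itself (edgeR, adjusted over all genes). For mEndo-like against cvEC-like cells the calls were 1 of 6 members, and 1 higher and 1 lower of 50 list genes. Over all genes 2.05% were called there. For mEndo-like against vEndo-like cells 0 of 6 members and 1 of 48 list genes were called, beside 1.02% of all genes. For compact-like against trabecular-like cells 0 of 7 members and the list gene *Fos* were called, beside 0.073% of all genes. For *Nrg1* the change in mEndo-like minus that in cvEC-like cells was -1.32 (adjusted p = 0.0414), with the limits given above. For *Adam12* it was 1.75 (adjusted p = 1.764e-05): mEndo-like levels were 26.9, 38.4, 65.7 and 69.8 CPM and cvEC-like levels 23.9, 29.1, 19.9 and 13.8 CPM. Against vEndo-like cells, at 42.5, 34.9, 20.9 and 33.3 CPM, the *Adam12* difference was 1.59 (adjusted p = 0.004947), and it was not called by DESeq2 or without the first control library (highest adjusted p 0.208). For *Fos* the change in mEndo-like minus that in cvEC-like cells was -1.07 (adjusted p = 4.315e-06), with cvEC-like levels of 253, 190, 186 and 174 CPM. The part of the trypsin dissociation in the *Fos* differences of this section was not tested. The *Fos* change in compact-like minus that in trabecular-like cells was 0.73 (adjusted p = 0.0006064), with compact-like levels of 113, 73.2, 66.5 and 93.9 CPM and trabecular-like levels of 188, 142, 70.0 and 99.8 CPM. It was not called without the first control, without the second control or with cycling cells left out (highest adjusted p 0.143).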

How the results depend on the processing

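The alternatives gave 1006 recomputed values for the 77 values of the 8 genes. Of these 963 kept their side of the threshold, 35 passed it newly, 8 lost it (all for the *Nrg1* difference between mEndo-like and cvEC-like cells) and 0 called values reversed. The other sign was seen in 106 values that were not called. The *Erbb4*, *Erbb3* and *Hbegf* differences between compact-like and trabecular-like cells were called under all 13 alternatives each. The cause of the changes below was not tested, except that settings without a library use fewer samples, and there the lone library is assumed to vary like the others.

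Counts of all genes called between genotypes depended on the settings. In mEndo-like cells the count of 280 became 912 without the filter on low counts, 432 with a replicate block, 162 without doublet removal and 631 with clusters, and 164 to 900 without 1 library. In cvEC-like cells 170 became 75 (DESeq2), 400 (no filter), 37 (doublets kept), 109 (clusters) and 42 (cycling cells left out), and 175 to 993 without 1 library. In vEndo-like cells 57 became 90 (total count scaling), 278 (no filter), 179 (replicate block), 16 (doublets kept) and 14 (cycling cells left out), and 97 to 492 without 1 library. In all cardiomyocytes 1 became 26 (DESeq2), 4 (total count), 356 (no filter), 46 (replicate block), 0 (doublets kept) and 0 (stricter cell filter), and 1 to 1689 without 1 library. In compact-like cells 2 became 9 (DESeq2), 103 (no filter), 0 (doublets kept), 1 (stricter cell filter), 0 (wider gate margin) and 1 (clusters), and 13 to 1515 without 1 library. In trabecular-like cells 4 became 8 (DESeq2), 38 (total count), 189 (no filter), 76 (replicate block), 15 (clusters) and 10 (cycling cells left out), and 28 to 2334 without 1 library. In mesenchymal cells 4 became 117 (DESeq2), 19 (total count), 643 (no filter), 398 (replicate block) and 197 (cushion-like cells alone, chosen after seeing the data), and 23 to 515 without 1 library. In epicardial-like cells 18 became 0 (DESeq2), 62 (no filter), 0 (replicate block), 0 (doublets kept), 9 (stricter cell filter), 8 (wider margin), 4 (clusters) and 0 (cycling cells left out), and 12 to 92 without 1 library.

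Between compact-like and trabecular-like cells 6371 genes were called, and 5509 to 5588 without 1 library. For the difference between mEndo-like and cvEC-like cells 258 became 46 (DESeq2), 150 (doublets kept), 151 (wider margin) and 114 (cycling cells left out), and 39 to 222 without 1 library. For mEndo-like and vEndo-like cells 123 became 31 (DESeq2), 270 (no filter), 257 (clusters) and 67 (cycling cells left out), and 39 to 203 without 1 library. For compact-like and trabecular-like cells 10 became 4 (DESeq2), 34 (no filter), 5 (stricter cell filter), 6 (wider margin) and 41 (clusters), and 1 to 63 without 1 library. Among the fits without 1 library, the highest count came without the first *Ets1* eKO library in all 3 endothelial and all 3 cardiomyocyte comparisons.

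The difference in the share of mEndo-like cells with an *Nrg1* UMI, -1.66 points, was -8.67 with all UMIs, -4.69 with clusters and -2.44 at 1000 UMIs, and ran from -4.44 to 1.12 without 1 library, reversing without the first control.

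Total count scaling gave 118 higher and 208 lower in mEndo-like cells (136 and 144 with TMM), 85 and 100 in cvEC-like (104 and 66), 30 and 60 in vEndo-like (29 and 28), and 4175 and 2534 for compact-like against trabecular-like cells (3143 and 3228). It moved the median of all genes in all cardiomyocytes from 0.01 to -0.11 on the log2 scale.

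Libraries share replicate numbers by label only. The labels do not say that a number marks a shared litter or day, so the numbers were not taken as pairs. Deviations of same-numbered libraries correlated at 0.006 (mEndo-like), -0.095 (cardiomyocytes) and -0.098 (mesenchymal). With 2 libraries per group the deviations mirror each other, so these values cannot decide whether numbers mark pairs. With a replicate block 4 of 51 member values passed the threshold against 0 without it: *Errfi1* in mEndo-like cells (-0.92, adjusted p = 0.0491), *Hbegf* in vEndo-like cells (0.81, 0.0262), and *Nrg1* (-0.99, 9.21e-05) and *Egfr* (-0.80, 0.000313) in mesenchymal cells.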
